A study of Mus musculus with 6 samples.

Results

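The gene desert upstream of Satb1 was followed here over its nearer stretch, from 20 kb to 338 kb from the 4C bait. Its members were all DpnII restriction fragments of chromosome 17 whose midpoint lies in this span on the side of the Satb1 promoter, from the first at 51982289 to the last at 52299980 (mm9), 803 of 229546 fragments on the chromosome. Contacts of the Satb1 promoter were measured by 4C-seq in DP thymocytes and in ES cells, with 1 library per cell type. The DP library came from CD4+/CD8+ cells sorted by FACS from c57/Bl6 thymus at 4 weeks of age, and the ES library from the J1 line (129S4/SvJae), grown on feeder cells and then without them. Both groups were fixed with 2% formaldehyde for 10 min, cut with DpnII and then Csp6I, and had a prey of 26 bases left from 50-base reads. The labels give 0.4% SDS for both, whereas the methods of the study give a higher concentration and a warmer first step for DP nuclei. Cell type, strain, origin and this step differ together between the libraries and cannot be told apart. Whether 1 thymus or several were used is not said in the sources used here, and contact counts hold no marker genes against which the cell labels could be checked. With no replicate in either cell type, no difference has a test, and every ratio compares these libraries.

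In 4C, chromatin is fixed, cut and ligated, and fragments joined to a chosen bait are amplified and counted, so that a fragment near the bait in the nucleus yields more reads. Counts normally fall with distance along the chromosome, and a contact is read as a rise over that fall. Satb1 encodes a DNA-binding organizer of chromatin that is abundant in thymocytes, and the study set DP thymocytes, which express it, against ES cells, where it is silent. Gene deserts beside developmental regulators often hold their enhancers, and here the stretch lies between the promoter and a more distant cluster of putative enhancers. The bait, at 51962000, sits in an intron of Satb1 (chr17:51875512-51972615, minus strand), whose start lies 9.39 kb before the stretch. No gene annotated in GENCODE vM1 overlaps it. The next annotated gene is the miRNA gene AC121600.1 (chr17:52544362-52544442), 244 kb beyond its far end, and the next protein coding gene is Kcnh8, a potassium channel gene, 565 kb beyond.

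Fragments whose counts differed widely between the libraries are printed from the mm9 reference, 5′ to 3′ on the plus strand. Their DpnII ends (GATC) and any Csp6I site (GTAC) are in capitals. Of 14 local tops of the signal described further on, 6 are represented, each by its most read fragment of at most 300 bases, and 1 fragment read only in DP is added. Such fragments of other tops are not shown, and they need not follow the running mean: that of the DP top at 20.3 kb (chr17:51977769-51977932), where the running mean is higher in ES, had 2179 reads in DP and 260 in ES.
DP, chr17:52019756-52019934, 2803 reads in DP and 659 in ES: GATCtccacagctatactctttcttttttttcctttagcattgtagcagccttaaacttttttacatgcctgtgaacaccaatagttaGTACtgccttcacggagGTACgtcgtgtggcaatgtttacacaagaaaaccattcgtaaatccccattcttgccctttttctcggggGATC
DP, chr17:52169328-52169595, 2640 reads in DP and 598 in ES: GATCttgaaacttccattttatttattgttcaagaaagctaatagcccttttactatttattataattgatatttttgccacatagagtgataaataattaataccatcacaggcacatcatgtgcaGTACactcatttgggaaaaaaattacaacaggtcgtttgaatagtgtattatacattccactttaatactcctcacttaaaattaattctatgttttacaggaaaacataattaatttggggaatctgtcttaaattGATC
DP, chr17:52288187-52288246, 2941 reads in DP and 8 in ES: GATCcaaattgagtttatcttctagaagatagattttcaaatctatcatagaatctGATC
DP alone, chr17:52237831-52238038, 3062 reads in DP and 0 in ES: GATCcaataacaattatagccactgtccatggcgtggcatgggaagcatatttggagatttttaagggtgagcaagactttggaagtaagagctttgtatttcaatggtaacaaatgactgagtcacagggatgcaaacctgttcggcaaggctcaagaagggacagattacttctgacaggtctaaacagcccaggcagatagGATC
ES, chr17:51983780-51983990, 581 reads in DP and 2981 in ES: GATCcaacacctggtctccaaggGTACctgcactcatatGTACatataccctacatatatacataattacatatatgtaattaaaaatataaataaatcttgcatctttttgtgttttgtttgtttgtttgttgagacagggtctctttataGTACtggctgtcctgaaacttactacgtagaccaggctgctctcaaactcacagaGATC
ES, chr17:52106834-52106922, 273 reads in DP and 1591 in ES: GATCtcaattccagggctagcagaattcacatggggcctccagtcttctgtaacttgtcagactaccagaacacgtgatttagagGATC
ES, chr17:52153591-52153671, 74 reads in DP and 1537 in ES: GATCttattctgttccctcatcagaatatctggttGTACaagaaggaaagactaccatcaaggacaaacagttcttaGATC
They are 60 to 268 bases long. Each gave many more reads in one cell type than in the other, but they were chosen with the counts known, so this is no support for a difference. Counts of single fragments have no replicate, so the results that follow are given over steps and running means. For each printed fragment at least 1 end was unique, that is, its first 26 bases occurred at no other DpnII site of the genome.

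The DP library held 1997083 reads and the ES library 1847598. Within 1.5 Mb of the bait lay 1657848 reads of the DP library (83.0%) and 1234854 of the ES library (66.8%), on 7547 fragments. The desert stretch took 411025 reads in DP and 251301 in ES, which is 24.8% and 20.4% of the reads within 1.5 Mb. Divided by those reads, the DP to ES ratio was 1.22, with a counting interval of 1.21 to 1.22 (95%, exact binomial). PCR copies cannot be told from separate ligations, so this interval covers the counting of reads only and not the error between libraries. After quantile normalization of both libraries within 1.5 Mb, the DP mean was 455 normalized reads per fragment and the ES mean 362 (ratio 1.26). Over fragments with a read in either library, the DP median of normalized reads divided by the ES median was 2.40. The paper warns that quantile normalization is disturbed where zeros or very small values are many.

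Most fragments of the desert had a read in both libraries. A read was present on 641 of 803 fragments in DP (79.8%, Wilson 95% interval 76.9 to 82.5%) and on 592 in ES (73.7%, 70.6 to 76.7%). These intervals treat neighbouring fragments of 1 library as separate draws. They measure neither the counting of reads nor the error between libraries, so they do not test the difference. Detection was higher in DP by 6.10 percentage points (1.89 over fragments above 300 bp). Over the whole 1.5 Mb on each side the order was the other way, with 39.2% of fragments detected in DP and 50.4% in ES. The median fragment of the desert had 159 reads in DP and 76 in ES, and the highest had 5617 in DP and 4355 in ES. ES reads were gathered on fewer fragments, since the 10 highest fragments held 8.89% of the desert reads in DP and 13.0% in ES.

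Most detected fragments were shared by the libraries, while few of the highest were. Reads in both libraries were found on 565 fragments, in DP alone on 76 and in ES alone on 27. The DP-only fragments held 48599 reads, 11.8% of all DP reads of the desert, with up to 3470 on 1 fragment. Fragments read in ES alone held 4451 reads, 1.77% of the ES reads, and at most 921. Of the 565 shared fragments, 351 (62.1%) had the higher normalized count in DP. This share was not computed with plain scaling of reads, and normalization can turn the order of low counts. A fragment with 25 reads in DP and 57 in ES (chr17:52048821-52050202) had 47 in DP and 38 in ES after it. Among the 40 highest fragments of each library 6 were shared, 15% of each list. In the same way, 16 of 40 were shared at the same distances on the other side of the bait, and 6 of 40 in the sequence following the desert. Shared fragments made up 88.1% of those detected in DP and 95.4% of those detected in ES, against 74.6% and 53.4% outside the desert. At the same distances on the other side of the bait these shares were 94.3% in DP and 64.6% in ES. In the sequence following the desert they were 73.8% in DP and 88.1% in ES. A high share was thus not particular to the desert. High counts on single fragments can come from PCR, and their part here was not tested. Spearman's rho of the counts over the 565 fragments was 0.41, and that of the levels over 32 steps of 10 kb was 0.62. Both are descriptions along 1 stretch of chromosome, where neighbours share distance to the bait and sequence.

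In steps of 10 kb, DP stood above ES along most of the desert. Of 32 steps, the last of them 8 kb long, 26 were higher in DP and 6 in ES, with a median DP to ES ratio of 1.33 and a range of 0.391 to 4.85. At least 1.5-fold higher in DP were 13 steps, 40.6% of the desert, beside 28.0% of the 264 steps tested within 1.5 Mb. At least 1.5-fold higher in ES were 3 steps, 9.38%, beside 45.1% of all steps. With quantile normalization, steps at least 1.5-fold higher in DP were thus more frequent than over the whole range, and those higher in ES less frequent. The DP number was 10 of 32 with scaling to the reads within 1.5 Mb and 19 of 32 with scaling to all reads of the chromosome. It was 9 of 26 over fragments with a Csp6I site, 9 of 28 over fragments above 300 bp and 16 of 29 over even-numbered fragments. Shares over the whole range were not computed under these settings. The ES number depended on the fragments used, with 6 steps over fragments above 300 bp and 1 over fragments without a Csp6I site. DP step levels ran from 82.4 to 740 normalized reads per fragment with a median of 475, and ES levels from 47.1 to 1391 with a median of 358.

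**Figure D1:**
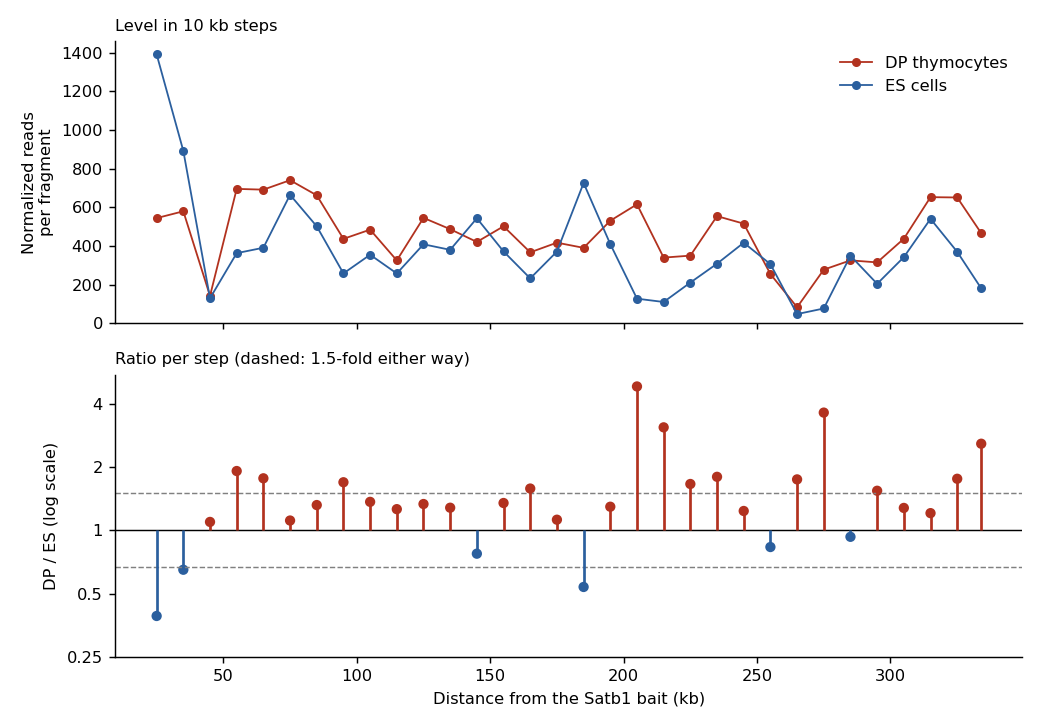
Normalized reads per fragment in 32 steps (upper panel, y-axis) and DP to ES ratio on a log scale (lower panel, y-axis) by distance of the step centre from the bait in kb (x-axis), with 1 library per cell type and dashed lines at 1.5-fold. DP lies above ES in 26 steps, most at 205 kb, and ES lies above DP by at least 1.5-fold at 25, 35 and 185 kb.

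The part nearest the promoter was the exception, with more contacts in ES cells. In the step centred 25 kb from the bait (ending at 51992000) the level was 544 in DP and 1391 in ES (ratio 0.391), in normalized reads per fragment as in all steps. The next step, at 35 kb (chr17:51992001-52002000), had 579 in DP and 892 in ES (ratio 0.649). Over 12 other choices of scaling or fragments this step was higher in ES in all 12, but at least 1.5-fold so in 7. Its ratio was 0.787 with scaling to all reads of the chromosome and 0.855 over even-numbered fragments. The steps at 25 and 35 kb were the highest ES steps of the desert, whereas in DP both were exceeded by steps farther away. From 20 to 40 kb the level was 564 in DP and 1101 in ES. Beyond, the order turned: it was 520 in DP and 364 in ES at 40 to 140 kb, 440 in DP and 325 in ES at 140 to 240 kb, and 381 in DP and 268 in ES at 240 to 338 kb. The ratio was 0.513 in the nearest part and 1.43, 1.35 and 1.42 in the following ones, so that past 40 kb the difference did not widen with distance within the desert.

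The highest DP steps formed a plateau at 55 to 85 kb. The step at 75 kb (chr17:52032001-52042000) had a level of 740 in DP and 664 in ES, and it was lower in DP among fragments over 300 bp (ratio 0.711) and among even-numbered fragments (ratio 0.961). At 55 kb (chr17:52012001-52022000) the level was 695 in DP and 362 in ES, and at 65 kb (chr17:52022001-52032000) 691 in DP and 390 in ES. DP exceeded ES in these 2 steps by 1.92 and 1.77 times, while at 75 kb the ratio was 1.11. Among fragments without a Csp6I site the ratios at 55 and 65 kb were 1.11 and 1.43, and at 55 kb it was 1.46 over odd-numbered fragments, all under 1.5. All 24 fragments of the step at 75 kb had a read in DP and 22 of them in ES.

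The step with the widest gap between the cell types opened a run of 4 steps, from 200 to 240 kb, that were each at least 1.5-fold higher in DP. At 205 kb (chr17:52162001-52172000) the level was 615 in DP and 127 in ES (ratio 4.85). The step at 215 kb (chr17:52172001-52182000) had 339 in DP and 110 in ES (ratio 3.09). The following steps, at 225 and 235 kb, had ratios of 1.66 and 1.80. The ES library was not empty there, with reads on 17 of 22 fragments at 205 kb and 19 of 27 at 215 kb, against 19 and 21 fragments in DP. In ES the highest fragment of the step at 205 kb had 598 reads, and in DP 3045. That DP fragment (chr17:52167190-52168508, 1319 bp) had no read in ES although both of its ends are unique. Over 12 other choices of scaling or fragments the ratio at 205 kb lay between 4.10 and 9.27.

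Shortly before this run lay the one place far from the promoter where ES was at least 1.5-fold higher. At 185 kb (chr17:52142001-52152000) the level was 390 in DP and 725 in ES (ratio 0.538). As many fragments had a read in DP as in ES, 20 of 22, so the libraries differed in reads per fragment and not in detection. The highest fragment there (chr17:52148679-52149214) had 768 reads in DP and 3382 in ES, 26.2% of the ES reads of the step. The direction was not shared by all fragments: among those without a Csp6I site the ratio was 2.61, and among odd-numbered fragments 1.12. The other steps above DP in ES were less than 1.5-fold so, at 145 kb (ratio 0.774), 255 kb (0.833) and 285 kb (0.932).

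The step at 275 kb (chr17:52232001-52242000) also ranked high in ratio, with a level of 277 in DP and 76.2 in ES (ratio 3.64), but it rested on few fragments. Reads were present on 10 of its 31 fragments in DP and on 7 in ES, and 17 of them had no unique end. The DP-only fragment printed above held 31.3% of the DP reads of this step, and the ratio was 2.07 over odd-numbered and 99.7 over even-numbered fragments. The step before it, at 265 kb (chr17:52222001-52232000), was the lowest in both libraries, with 82.4 in DP and 47.1 in ES. There 21 of 30 fragments had no unique end and 1 fragment held 81.8% of the DP reads, and its ratio of 1.75 turned to 0.850 without fragments holding a Csp6I site and to 0.875 over odd-numbered fragments.

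A running mean over 21 fragments gave a finer view of the profile. A local top was a maximum of this mean within 10 kb that reached at least 1.5 times its background. That background was the median running mean of fragments 10 to 40 kb away and at least 20 kb from the bait. In DP 6 of 12 local maxima were tops (69.2% of the 91 maxima within 1.5 Mb were) and in ES 8 of 10 (82.7% of 110), so in neither library did the share of tops exceed that of the whole range. The number of DP tops moved with the settings, from 15 with 11 fragments to 3 with 55 fragments, and the ES number from 10 to 6.

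**Figure D2:**
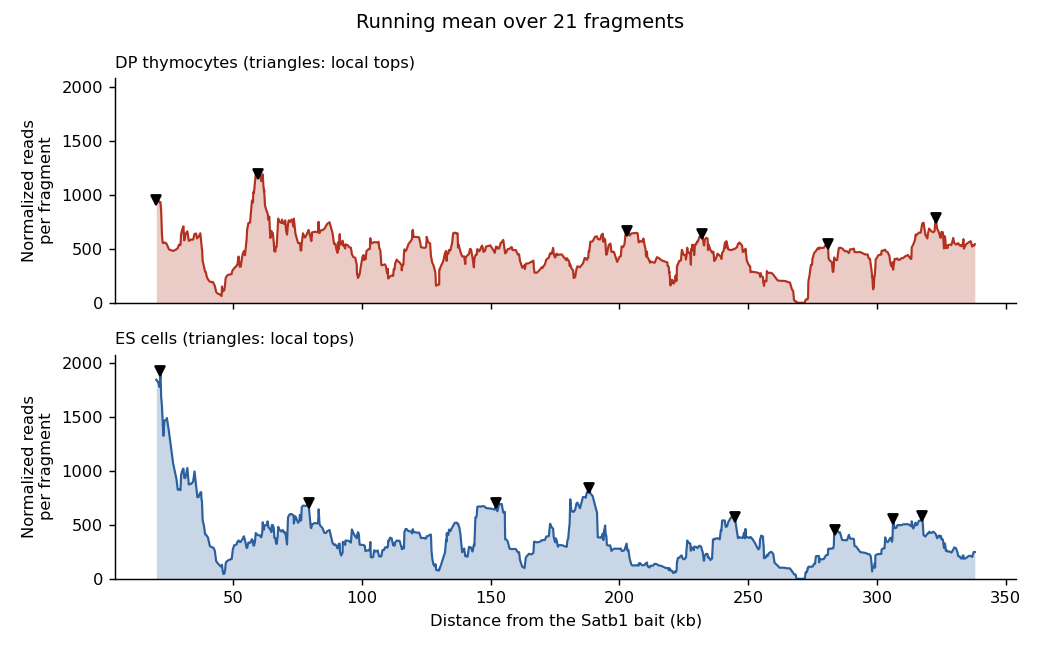
Running mean of normalized reads over 21 fragments (y-axis) by distance from the bait in kb (x-axis) in DP thymocytes (upper panel) and ES cells (lower panel), with triangles at local tops. The DP profile has its highest top, 1193 reads per fragment, at 59.6 kb, and the ES profile its highest, 1931, at 21.9 kb.

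The DP tops stood at 1.56 to 2.22 times their background. The highest, at 52021612 and 59.6 kb from the bait, reached 1193 normalized reads per fragment, 2.16 times its background, where the ES mean was 406. It holds the first DP fragment printed above and a fragment with 5617 reads in DP and 653 in ES (chr17:52022710-52023304), the highest of the DP library in the desert, of which 1 end is unique. Without that fragment the top stood at 1030, still 1.87 times the background. The other DP tops away from the edge lay at 203, 232, 281 and 323 kb, with running means of 661, 639, 541 and 787, or 1.58, 1.90, 1.56 and 1.67 times the background. At these places the ES running means were 327, 271, 223 and 417. Without their highest fragment, 3 of these 4 fell below 1.5 times, to 1.34, 1.25 and 1.41, and the top at 232 kb to 1.55. Under 6 other settings of the running mean, background, height or fragments, a top was found within 10 kb of the one at 59.6 kb in all 6, of those at 203 and 232 kb in 3, of that at 281 kb in 2 and of that at 323 kb in 4. Those at 203, 232 and 281 kb were not tops over a monotonic background. The tops at 232 and 281 kb were also lost when only fragments with a unique end were used. The background of both takes in the low step at 265 kb, where 21 of 30 fragments had no unique end. A further DP top at 20.3 kb, with 951 in DP and 1846 in ES, lies on the edge of the stretch and shares its window with fragments nearer to the bait. It was not a top over a monotonic background.

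Several ES tops stood farther above their own surroundings. The nearest, at 51983882 and 21.9 kb from the bait, had a running mean of 932 in DP and 1931 in ES. This was 5.71 times its ES background, and its window too reaches nearer to the bait than 20 kb. Its background holds only fragments farther from the bait, and it was not a top over a monotonic background. At 188 kb (52150114) the running mean was 480 in DP and 847 in ES, 3.65 times the background, and 2.80 times without its highest fragment. At 245 kb (52206768) it was 499 in DP and 576 in ES, 4.20 times the background. That background was 137 and takes in the low steps at 265 and 275 kb. In them 21 of 30 and 17 of 31 fragments had no unique end. The other ES tops lay at 79.4, 152, 284, 306 and 318 kb, at 2.15, 1.90, 1.94, 2.66 and 2.58 times the background. At 318 kb the DP level was the higher one, 736 in DP and 582 in ES. At 79.4 and 152 kb the highest fragment held 36.0% and 37.5% of the window, and without it these tops stood at 1.44 and 1.24 times the background. The other 6 ES tops stayed above 1.5 times without their highest fragment, at 1.62 to 5.05 times. Under the 6 other settings used for DP, the ES tops at 79.4, 188, 245 and 318 kb were found in all 6. Those at 21.9, 152 and 306 kb were found in 5 and that at 284 kb in 3. The top at 284 kb was not a top over fragments with a unique end.

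Some tops of the libraries lay close to each other and some did not. Of 6 DP tops, 3 had an ES top within 10 kb, at distances of 1.59, 2.80 and 5.18 kb, near 20, 281 and 323 kb from the bait. Such a count was not made over the whole range, so 3 of 6 is not read as more or less overlap than elsewhere. The DP tops at 59.6, 203 and 232 kb had their nearest ES top 19.8, 14.7 and 12.8 kb away, and the ES top at 152 kb lay 50.7 kb from any DP top.

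On the other side of the bait the same distances first cross the rest of Satb1 and then the sequence past its end, and hold 765 fragments. Over the whole span the desert had 455 normalized reads per fragment against 207 on the other side in DP, and 362 against 420 in ES. The desert was thus 2.19 times its counterpart in DP and 0.861 times in ES. In DP this excess was absent at 20 to 40 kb (0.684 times) and stood at 1.70, 5.26 and 3.60 times in the following parts. In ES the same parts had 1.08, 0.686, 1.10 and 0.849 times. Detection went the same way, with 79.8% of fragments in the desert and 57.8% on the other side in DP, and 73.7% and 84.4% in ES. Of the 32 steps on the other side, 1 was at least 1.5-fold higher in DP and 27 in ES. Since normalization gives both libraries the same total within 1.5 Mb, a rise on one side goes with a fall elsewhere.

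**Figure D3:**
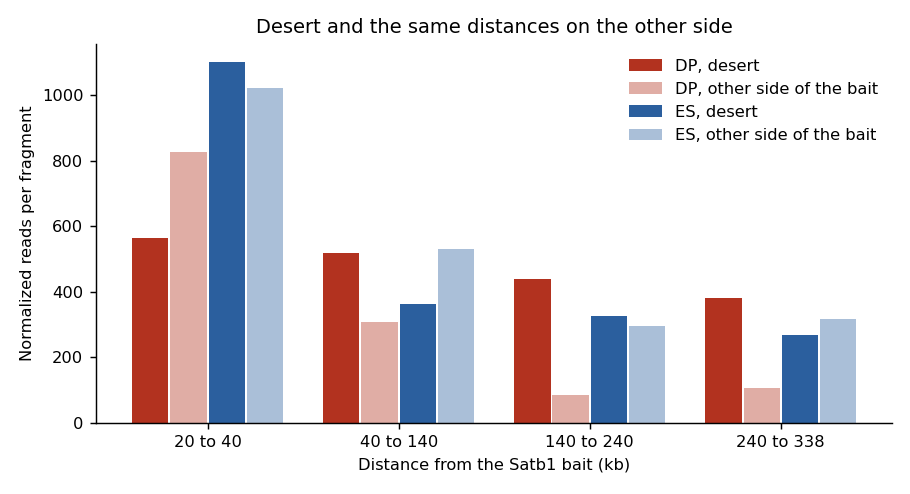
Normalized reads per fragment (y-axis) in 4 distance ranges in kb (x-axis), in the desert (dark bars) and at the same distances on the other side of the bait (pale bars), 1 library per cell type. In DP the desert bar is 5.26 times the pale bar at 140 to 240 kb, and in ES both bars are near each other there (1.10 times).

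The desert also differed from the sequence that follows it, from 338 to 688 kb, which holds 925 fragments and the more distant putative enhancers. There the level was 322 in DP and 132 in ES (ratio 2.45), with 28 of 35 steps at least 1.5-fold higher in DP and 1 in ES. In DP the desert stood at 455 and the farther sequence at 322, and in ES at 362 and 132, so the fall from one to the other was steeper in ES.

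The longest gaps in both profiles lay where the sequence is repeated. Of the 803 fragments, 98 (12.2%) had no unique end, and a read was present on 7 of them in DP and on 4 in ES. With 2 unique ends the share was 93.4% of 624 fragments in DP and 86.7% in ES, and with 1 it was 63.0% of 81 in DP and 58.0% in ES. Among the 135 fragments without a read in either library, 91 had no unique end. The longest run without a read in either library was chr17:52229009-52236157, with 37 fragments of which 36 had no unique end, followed by chr17:52004166-52010912, with 16 of 16. This second run falls in the step at 45 kb, where reads were present on 5 of 23 fragments in DP and on 6 in ES, with levels of 141 in DP and 129 in ES. Not every dip had so many repeated ends: at 295 kb reads were present on 12 of 24 fragments in DP and on 9 in ES, and 7 of the 24 had no unique end.

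Ends from these runs are shown because a prey of 26 bases that starts with them matches many places. Capitals mark the DpnII site.
chr17:52229062-52229215, left end, at 15969 DpnII sites of the genome: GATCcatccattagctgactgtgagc
chr17:52229062-52229215, right end, at 14345 sites: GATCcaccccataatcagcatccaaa
chr17:52004166-52004317, left end, at 1353 sites: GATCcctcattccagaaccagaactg
For a fragment of such runs with no unique end, a count of 0 gives no limit on contact, since a read from either end matches more than 1 site.

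**Figure D4:**
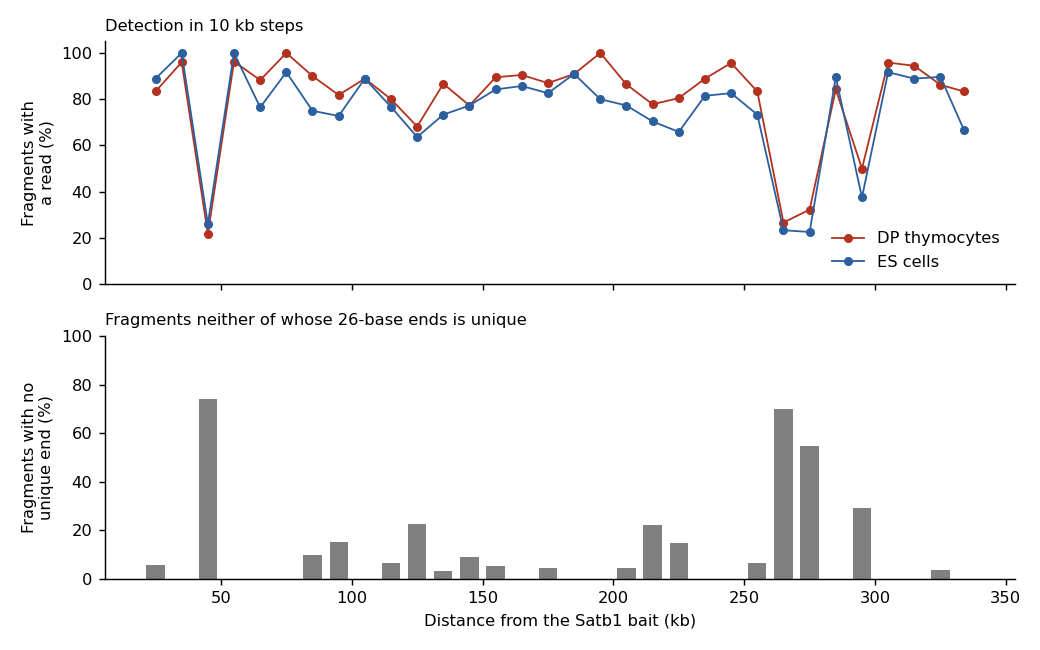
Share of fragments with a read in percent (upper panel, y-axis) and share of fragments with no unique 26-base end in percent (lower panel, y-axis) in 10 kb steps by distance from the bait in kb (x-axis), 1 library per cell type. Detection dips in both libraries at 45, 265 and 275 kb, where 17 of 23, 21 of 30 and 17 of 31 fragments have no unique end, and less deeply at 295 kb, where 7 of 24 have none.

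The size of the DP excess moved with the kind of fragment. Among fragments with a unique end, the level on those without a Csp6I site was 350 in DP and 216 in ES (ratio 1.62), and on those with such a site 699 in DP and 627 in ES (ratio 1.11). On fragments of up to 300 bp it was 476 in DP and 296 in ES (1.61), and on longer ones 556 in DP and 529 in ES (1.05). Of these, fragments of 301 to 600 bp had 576 in DP and 515 in ES (1.12), and the 175 fragments over 600 bp had 536 in DP and 544 in ES (0.986), so the DP excess was not seen on the longest fragments. Outside the desert the ratio was also higher on short fragments, 1.01 against 0.788 on long ones. Fragment type thus goes with the ratio in and out of the desert, and its part in the difference between the cell types was not tested. On fragments of up to 300 bp and on longer ones the desert ratio was above the ratio outside.

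The letters CCANNAGNNGGC, which resemble the core of the motif of the insulator protein CTCF, were searched on both strands. They occurred 90 times within 1.5 Mb, in 77 of 296 steps (26.0%), and in the desert 2 times, in 2 of 32 steps. Both matches are on the plus strand and are shown with flanks in lower case.
chr17:52049624-52049653: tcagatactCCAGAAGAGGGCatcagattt
chr17:52111823-52111852: tggggattcCCAACAGAGGGCttccagcaa
The first lies in a fragment (chr17:52048821-52050202) with 25 reads in DP and 57 in ES. After normalization the order was the other way, with 47 in DP and 38 in ES. The second lies in the longest fragment of the desert (chr17:52110333-52113505, 3173 bp), with 778 reads in DP and 3714 in ES, the second highest ES count of the desert, or 679 normalized reads in DP and 5532 in ES. That fragment is the highest of the ES top at 152 kb, which stood at 1.90 times its background with it and at 1.24 times without it. A match of letters is a description and does not show that the protein binds.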

How the data were processed

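Bait sequence was removed by the authors with up to 2 mismatches, and the rest of each read was mapped to mm9. The submitters' processing notes name bcl2fastq and Bowtie version 1.0.0. The deposited values are raw read counts for each DpnII fragment of chromosome 17, neither normalized nor freed of PCR copies. By the user guide of the study, a fragment above 2% of the reads is dropped. Of 6 libraries the 2 with the Satb1 bait were used. Every midpoint was matched to a DpnII fragment of the mm9 sequence, with genes from GENCODE vM1. Counts within 1.5 Mb were quantile normalized in Python version 3.11.15, with the outcome checked against normalizeQuantiles of limma version 3.58.1. This range is the plotting limit of 4See and was taken here, since the paper ties no range to the normalization itself. Steps needed at least 10 fragments and 3 reads per library. The scripts were tested on simulated data. Members, steps and lists were chosen with earlier results of these data known. Named are the genes at the edges, the 3 highest steps of each library, the 3 highest and 3 lowest ratios, the step lowest in both, and all local tops. Other named steps and fragments, the limit to the highest fragment of at most 300 bases, the end uniqueness, the fragment classes and the motif were chosen after the values were seen. Alternatives covered scaling, fragments, step size, fold, running mean and background.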

Additional observations from a re-analysis of the deposited data

How the results depend on the processing

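With 1 library per cell type no replicate could be left out, and no paired analysis was possible because neither group has a second library. The ratio of DP to ES over the desert was above 1 under each alternative listed here, but 0.986 over the class of fragments over 600 bp with a unique end. It was 1.22 with scaling to the reads within 1.5 Mb, with normalization over 1 Mb and over odd fragments, 1.30 over even fragments, 1.33 with values capped at the 99th percentile, 1.36 without the highest fragment of each library in each step, 1.38 with scaling to reads outside 20 kb of the bait and 1.51 with scaling to all reads of the chromosome. Over fragments with a Csp6I site it was 1.11, and as the ratio of the 2 normalized medians over fragments with a read in either library 2.40. Chosen after seeing the data were fragments with a unique end (1.25), without a Csp6I site (1.63) and over 300 bp (1.05). The 13 steps higher in DP became 5 of 16 in steps of 20 kb and 4 at 2-fold. Their number was 10 of 32 with scaling to the reads within 1.5 Mb and 19 of 32 with scaling to the chromosome. The 3 steps higher in ES became 1 with scaling to the chromosome, without Csp6I fragments, in 20 kb steps and at 2-fold, and 6 over fragments above 300 bp. The detection difference of 6.10 percentage points was 1.89 above 300 bp. DP tops numbered 15 with 11 fragments, 3 with 55 fragments, 3 over a monotonic background and 2 at 2 times the background. Over fragments with a unique end there were 4 DP tops and 7 ES tops. At 185 kb the ratio reversed to 1.12 (odd fragments) and 2.61 (no Csp6I site), at 265 kb to 0.875 and 0.850 under the same settings, and at 75 kb to 0.961 (even fragments) and 0.711 (over 300 bp). Under the settings of scaling and fragments that gave a value, 19 of 32 steps kept their direction, 17 higher in DP and 2 in ES. At least 1.5-fold throughout were 4 steps in DP (205, 215, 275 and 334 kb) and 1 in ES (25 kb). Those at 205, 215 and 275 kb had a value under 12, 11 and 12 settings, but those at 25 and 334 kb under only 8. At 25 kb, odd fragments, even fragments and fragments with or without a Csp6I site were too few to give a value. The low steps at 45, 265 and 275 kb are limited by repeated sequence. Where the cause of a change is not shown by the setting itself, the cause was not tested.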

Other observations

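A fragment of 60 bp at 326 kb from the bait (chr17:52288187-52288246) had 2941 reads in DP and 8 in ES, and a fragment of 303 bp within the DP top at 59.6 kb (chr17:52020018-52020320) had 3842 reads in DP and 87 in ES. In the other direction, a fragment at 285 kb (chr17:52246975-52247379) had 0 reads in DP and 921 in ES, with both ends unique. Single fragments of this kind have no replicate in these libraries, and reads on 1 fragment can come from few ligations.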
